A study of Mus musculus with 8 samples.

Results

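Wnt genes were followed through 4 kinds of mouse cells in an in vitro model of the testis: an embryonic stem cell line, the same line carrying an Sf1 transgene, Sertoli-like cells derived from it, and primordial germ cell-like cells taken from testicular organoids. The 54 genes are 17 Wnt ligands, 12 receptors, 10 secreted inhibitors, 8 genes of the R-spondin module and 7 intracellular transducers and targets, chosen by their role in the pathway among the 46078 gene IDs of the count tables. Wnt4 and Rspo1 were kept apart from the 54 and are given with the other genes of the pathway.

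Wnt ligands are secreted lipid-modified proteins that bind Frizzled receptors together with the co-receptors Lrp5 and Lrp6, which halts the destruction complex built on Axin and lets β-catenin (Ctnnb1) accumulate and act with DNA-binding factors of the TCF/LEF family. Secreted antagonists act outside the cell, either on the ligand (Sfrp proteins, Frzb, Wif1, Notum) or on Lrp5 and Lrp6 (Dkk1, Dkk2). R-spondins bind Lgr4, Lgr5 and Lgr6 and restrain Znrf3 and Rnf43, the ubiquitin ligases that clear Frizzled from the cell surface. In the fetal gonad Wnt4, Rspo1 and β-catenin are known for their part in ovarian differentiation, and in the epiblast Wnt3 is known for its part in germ cell specification.

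The tcESCs are a male (XY) tesco-cfp line, in which a Sox9 enhancer drives CFP, grown in 2iLIF medium. The tc;Sf1ESCs are the same line with a G418-selected Sf1 transgene (the gene Nr5a1) and stand for 1 clone, so the transgene and the clone cannot be told apart. SCLCs were sorted on CFP alone at day 12 from tc;Sf1ESCs differentiated with CHIR99021 and TTNPB and then CHIR99021, BMP7 and FGF9. The tod-PGCLCs were sorted at day 6 of organoid culture with tc;Sf1TesLCs and come from another male line, with a Prdm1-gfp reporter, so the line and the cell state cannot be told apart in any comparison with them. The study describes their gate as GFP with CD49f in its results, supplement and reporting summary, and as GFP with SSEA1 in its sequencing methods. CHIR99021, an inhibitor of GSK3 that activates the pathway below the receptors, was in the medium of all 4 groups, in 2iLIF for the ESCs and in the culture medium for the SCLCs and tod-PGCLCs. No group without it was compared.

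Each group holds 2 libraries, named biological replicates in the labels, with 25411033 to 30680191 counts on genes, where 3 counts stand for 0.0978 to 0.118 CPM (counts scaled to a common library total). The 2 SCLC libraries differed most, with an SD of the log2 difference of 0.508 against 0.250 in tc;Sf1ESCs. Nr5a1 had 1 and 0 counts in tcESCs, 52 and 30 in tc;Sf1ESCs, 341 and 535 in SCLCs and 6 and 5 in tod-PGCLCs, so its order follows the labels of the line and its derivative. Of 10 Sertoli cell markers, a list that includes Nr5a1 itself, 6 were called higher in SCLCs than in tc;Sf1ESCs, beside 24.1% of all genes tested. Gata4 made up most of their sum in SCLCs with 11011 and 12551 counts. Against tod-PGCLCs, 3 of the 10 were called higher in SCLCs and 3 lower. Fshr was at 0 in both SCLC libraries and Amh stood at 10 and 22 counts, no more than in ESCs. All 11 markers of primitive and visceral endoderm were called higher in SCLCs, where they summed to 1718 to 2545 CPM against 15.3 to 18.9 CPM in the ESCs and 31.4 to 45.6 CPM in tod-PGCLCs. Of 5 stromal markers 4 were called higher in SCLCs than in tc;Sf1ESCs and 1 was not tested, with sums of 970 to 984 CPM in SCLCs, 6.14 to 7.37 CPM in the ESCs and 30.4 to 33.1 CPM in tod-PGCLCs. Of 6 renal and intermediate mesoderm markers 3 were called higher and 3 were not tested, with sums of 8.11 to 8.18 CPM in SCLCs. The part of these lists in the Wnt results was not tested. The 9 germ cell markers summed to 1097 to 1098 CPM in tod-PGCLCs against 416 to 574 CPM in the other groups. Of these 9, 5 were called higher in tod-PGCLCs than in tcESCs, beside 18.1% of all genes tested, and 4 were not called. The 8 ESC markers summed to 3045 to 3326 CPM in tod-PGCLCs, 603 to 857 CPM in SCLCs and 5129 to 5896 CPM in the ESCs. In bulk RNA, fewer cells of a type and less RNA per cell cannot be told apart.

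Wnt genes were called where the levels of 2 groups differed by more than 2-fold and edgeR's quasi-likelihood test gave an adjusted p under 0.05. Between the 2 ESC lines 12 of the 54 (22.2%) were called, 7 higher and 5 lower in tc;Sf1ESCs, against 11.7% of the 16481 genes tested, 6.04% higher and 5.62% lower. SCLCs against tc;Sf1ESCs gave 30 of 54 (55.6%), 17 higher and 13 lower, against 42.2% of genes, 24.1% higher and 18.1% lower. SCLCs against tcESCs gave 31 (57.4%), 18 higher and 13 lower, against 42.7%, 24.3% higher and 18.3% lower. The tod-PGCLCs against tcESCs gave 27 (50%), of which 20 were higher and 7 lower, against 29.4% of 16707 genes, 18.1% higher and 11.2% lower. SCLCs against tod-PGCLCs gave 25 (46.3%), 11 higher and 14 lower, against 38.0%, 19.5% higher and 18.5% lower. These shares are of all 54 genes, tested or not, while the background is of tested genes. Of the 43 or 44 Wnt genes tested, 27.9%, 69.8%, 72.1%, 61.4% and 56.8% were called in these 5 comparisons, but a gene that passed the filter through the group where it is high had to differ, so nothing particular to the Wnt genes is read from either share. The median log2 fold change of the Wnt genes tested was 0.13, 0.45, 0.59, 1.06 and -0.12 in these 5 comparisons, beside 0.00, 0.02, 0.05, 0.03 and -0.01 over every gene tested. The comparisons share groups, so their counts are not independent of each other.

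**Figure D1:**
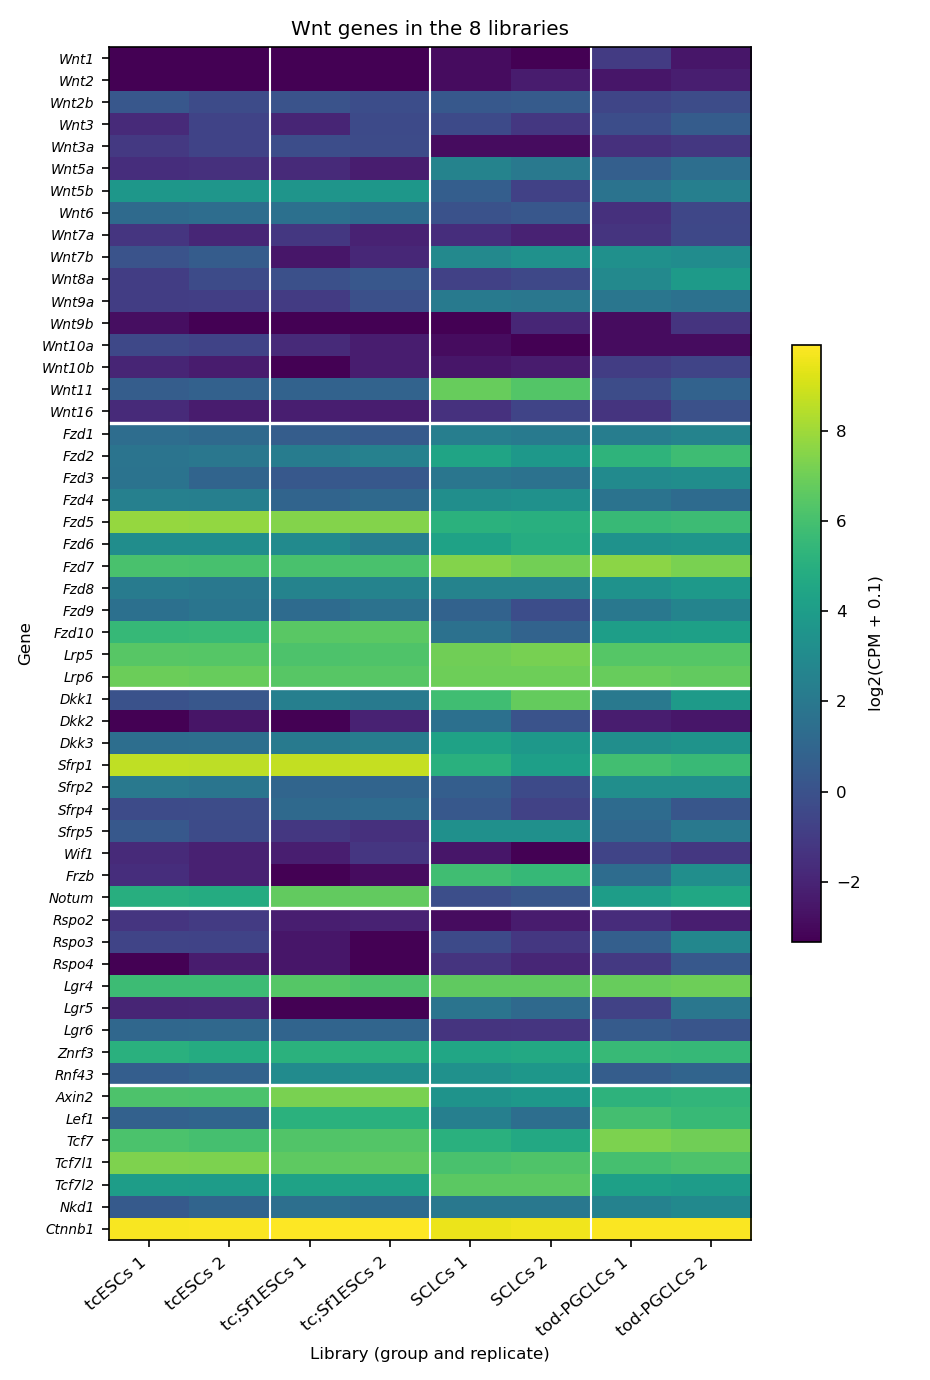
Level of each of the 54 Wnt genes (rows, in the order ligands, receptors, secreted inhibitors, R-spondin module, transducers and targets, separated by white lines) in each of the 8 libraries (columns), as log2(CPM + 0.1). Wnt11, Frzb and Dkk1 are bright in both SCLC libraries, Sfrp1, Fzd5 and Fzd10 are brightest in the ESC libraries, and Ctnnb1 is at a like level in all 8.

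The 54 genes divide into 38 called in at least 1 comparison, 6 tested and never called, and 10 whose mean count was too low to be tested. Of all 16901 genes tested in either fit, 61.7% were called in at least 1 comparison. The 6 are Wnt2b, Wnt3, Lrp5, Lrp6, Znrf3 and Ctnnb1. The 10 are Wnt1, Wnt2, Wnt7a, Wnt9b, Wnt10a, Wnt10b, Wnt16, Wif1, Rspo2 and Rspo4, none of which passed 30 counts in any library, and Wnt2 did not pass 3 counts in any. Rspo3 was tested only in the comparisons with tod-PGCLCs. A gene can pass the filter through a single group where it is high, and had to differ there. With 6 libraries these were Wnt5a, Dkk2, Frzb and Lgr5 (through SCLCs) and Wnt3a (through tc;Sf1ESCs), and with 8 they were Dkk2 (through SCLCs), Wnt3a (through either ESC line) and Rspo3 (through tod-PGCLCs). The values of each in comparisons with the group it passed through are a description.

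The leading Wnt ligand differed between ESCs, SCLCs and tod-PGCLCs. Per kilobase of exon (RPKM, the scale used here to set genes side by side), Wnt5b led in tcESCs at 4.68 ± 0.0707 (SD, n = 2) and in tc;Sf1ESCs at 4.57 ± 0.236, Wnt11 led in SCLCs at 23.6 ± 4.96, and Wnt8a led in tod-PGCLCs at 6.25 ± 2.90. In each group the libraries of the leader did not overlap those of the next ligand, which was Wnt6 in both ESC lines and Wnt7b in SCLCs and tod-PGCLCs. The next neighbours in the order, Wnt7b and Wnt5b in tod-PGCLCs and Wnt11 and Wnt8a in tcESCs, overlapped.

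Wnt11, a ligand known mainly for β-catenin-independent signalling, stood at 1.38 and 1.63 CPM in tcESCs, 1.70 and 1.77 in tc;Sf1ESCs, 112 and 83.1 in SCLCs and 0.726 and 1.69 in tod-PGCLCs. Both SCLC libraries lay far above the other 6, which ran from 0.726 to 1.77 CPM. It was 5.86 ± 0.19 higher in SCLCs than in tc;Sf1ESCs on the log2 scale (± SE, adjusted p = 6.06e-07) and 6.47 ± 0.28 higher than in tod-PGCLCs (adjusted p = 2.73e-07), or 7.19 without tod-PGCLC replicate 2. Wnt5a, another ligand of β-catenin-independent signalling, stood at 0.236 and 0.261 CPM in tcESCs, 0.193 and 0.108 in tc;Sf1ESCs, 5.92 and 3.99 in SCLCs and 1.49 and 2.60 in tod-PGCLCs. The SCLC, tod-PGCLC and ESC libraries formed 3 separate levels. Its log2 fold change was 5.06 ± 0.40 from tc;Sf1ESCs to SCLCs, the group through which alone it was tested there, and 2.94 ± 0.45 from tcESCs to tod-PGCLCs (adjusted p = 5.04e-04).

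Wnt7b and Wnt9a were high in SCLCs and tod-PGCLCs alike. Wnt7b stood at 0.944 and 1.34 CPM in tcESCs, 0.0771 and 0.181 in tc;Sf1ESCs, 7.47 and 10.1 in SCLCs and 9.77 and 8.40 in tod-PGCLCs. It was the 1 ligand called between the ESC lines (log2 fold change -3.08 ± 0.49, adjusted p = 3.43e-03). It then rose by 6.08 ± 0.40 from tc;Sf1ESCs to SCLCs (adjusted p = 1.06e-05), and SCLCs and tod-PGCLCs overlapped (log2 difference 0.09 ± 0.23). Without tc;Sf1ESC replicate 2 the Wnt7b difference between the ESC lines was -3.81 and that from tc;Sf1ESCs to SCLCs 6.79. Wnt9a stood at 0.433 and 0.456 CPM in tcESCs, 0.386 and 0.831 in tc;Sf1ESCs, 4.30 and 3.64 in SCLCs and 3.59 and 2.97 in tod-PGCLCs. It was higher in SCLCs than in tc;Sf1ESCs by 2.74 ± 0.35 (adjusted p = 2.90e-04) and in tod-PGCLCs than in tcESCs by 2.80 ± 0.35 (adjusted p = 1.68e-04), and the ESC lines overlapped. Without tc;Sf1ESC replicate 2 the former was 3.39.

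Wnt8a, which signals through β-catenin, stood at 0.433 and 0.717 CPM in tcESCs, 0.849 and 1.12 in tc;Sf1ESCs, 0.491 and 0.619 in SCLCs and 7.34 and 14.5 in tod-PGCLCs. Both tod-PGCLC libraries lay above the other 6, and replicate 2 held 1.98 times the level of replicate 1 (log2 fold change against tcESCs 4.14 ± 0.41, adjusted p = 4.43e-05). Wnt5b stood at 12.6 and 12.3 CPM in tcESCs, 11.7 and 12.6 in tc;Sf1ESCs, 1.47 and 0.481 in SCLCs and 3.16 and 5.08 in tod-PGCLCs. The ESC lines overlapped, and both derived groups lay below them, SCLCs by -3.60 ± 0.36 on the log2 scale against tc;Sf1ESCs (adjusted p = 8.79e-05) and tod-PGCLCs by -1.67 ± 0.33 against tcESCs (adjusted p = 2.15e-03). The SCLC value was -4.58 without SCLC replicate 1 and -3.00 without SCLC replicate 2.

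Wnt6 stood at 2.28 and 2.51 CPM in tcESCs, 2.82 and 2.38 in tc;Sf1ESCs, 0.906 and 1.10 in SCLCs and 0.254 and 0.602 in tod-PGCLCs. The order ran from the ESCs to SCLCs to tod-PGCLCs without overlap between these 3 levels. Wnt6 was lower in SCLCs than in tc;Sf1ESCs by a log2 fold change of -1.32 ± 0.25 (adjusted p = 2.16e-03) and in tod-PGCLCs than in tcESCs by -2.55 ± 0.37 (adjusted p = 3.62e-04). The call between SCLCs and tod-PGCLCs (1.36 ± 0.40, adjusted p = 1.37e-02) was lost without tod-PGCLC replicate 1, where the adjusted p was 0.0805, and with only the 4 libraries of these groups fitted, where it was 0.0560. Without tod-PGCLC replicate 2 these 2 differences from tod-PGCLCs were larger, -3.28 against tcESCs and 2.09 for SCLCs. Wnt3a, the ligand most used to activate β-catenin in culture, was at 1 count in each SCLC library, against 9 and 16 counts in tcESCs, 20 and 20 in tc;Sf1ESCs and 7 and 9 in tod-PGCLCs. The level in tc;Sf1ESCs was 20.7 times that in SCLCs, with a 95% counting interval of 5.38 to 177. Wnt10a, which was not tested, had 16 and 16 counts in tcESCs, 5 and 3 in tc;Sf1ESCs, 1 and 0 in SCLCs and 1 and 1 in tod-PGCLCs.

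The promoters of a gene that rose in SCLCs and of a target that fell there are shown, each as the 250 bases before the RefSeq start (GRCm38.p6), with any match to CTTTGA or its reverse complement TCAAAG, the core that TCF/LEF factors bind, in capitals. Wnt11 lies on the plus strand of chromosome 7 from 98835112 to 98855195 and Axin2 on the plus strand of chromosome 11 from 108920349 to 108950783, and both stretches lie upstream of the first exon.
Wnt11, chr7:98834862-98835111: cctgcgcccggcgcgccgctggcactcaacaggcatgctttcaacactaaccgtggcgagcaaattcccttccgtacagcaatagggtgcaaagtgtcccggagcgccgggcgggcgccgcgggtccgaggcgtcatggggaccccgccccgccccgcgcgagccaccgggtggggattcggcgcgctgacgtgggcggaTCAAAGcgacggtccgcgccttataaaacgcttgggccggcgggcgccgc
Axin2, chr11:108920099-108920348: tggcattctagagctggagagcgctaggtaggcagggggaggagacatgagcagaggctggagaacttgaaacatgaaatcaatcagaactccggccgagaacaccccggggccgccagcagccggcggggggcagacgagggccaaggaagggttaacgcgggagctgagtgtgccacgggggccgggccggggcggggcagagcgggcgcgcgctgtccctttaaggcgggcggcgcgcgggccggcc
The Wnt11 stretch holds the core once, starting 50 bases before the start, and the letter before it also completes the longer form CTTTGAT on the other strand. The Axin2 stretch holds neither, which says only that these letters are not in this window. Of 36 Wnt genes with a promoter in the table, 6 (Wnt5b, Wnt11, Fzd1, Dkk1, Frzb and Lef1) hold the core on either strand and 2 (Wnt5b and Wnt11) the longer form, where 15.8% and 3.72% of all 27025 genes do. Wnt5b and Wnt11, the leading ligands of ESCs and of SCLCs, moved in opposite directions.

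Among the Frizzled receptors, which bind Wnts through a cysteine-rich domain, Fzd5 led in tcESCs at 31.6 ± 1.43 RPKM (SD, n = 2), Fzd10 in tc;Sf1ESCs at 28.7 ± 0.350, and Fzd7 in both SCLCs at 34.1 ± 6.81 and tod-PGCLCs at 37.9 ± 6.52. No leader overlapped the next receptor. Fzd7 took 63.6% of the summed Frizzled RPKM in SCLCs and 52.5% in tod-PGCLCs, against 22.2% and 20.2% in the ESC lines, and SCLCs and tod-PGCLCs did not differ in it beyond the spread (log2 difference -0.02 ± 0.14). In SCLCs Fzd6, Fzd5 and Fzd2 followed with libraries that overlapped from one to the next.

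Fzd5 stood at 226 and 212 CPM in tcESCs, 173 and 171 in tc;Sf1ESCs, 35.1 and 32.4 in SCLCs and 47.4 and 54.2 in tod-PGCLCs, 4 levels without overlap. It was lower in SCLCs than in tc;Sf1ESCs by -2.30 ± 0.07 on the log2 scale (adjusted p = 4.83e-07) and in tod-PGCLCs than in tcESCs by -2.18 ± 0.08 (adjusted p = 3.53e-07). Fzd10 stood at 46.1 and 47.2 CPM in tcESCs, 92.3 and 93.9 in tc;Sf1ESCs, 2.91 and 1.72 in SCLCs and 16.8 and 18.0 in tod-PGCLCs. It thus had its highest level in tc;Sf1ESCs and its lowest in their SCLC derivatives (log2 fold change -5.29 ± 0.18, adjusted p = 6.50e-07). Its rise between the ESC lines, 1.01 ± 0.13 (adjusted p = 1.79e-03), lay at the 2-fold limit, and it was no longer called without tcESC replicate 1 or tc;Sf1ESC replicate 2, with RLE size factors, or by DESeq2.

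Fzd2 stood at 3.35 and 3.72 CPM in tcESCs, 4.67 and 5.56 in tc;Sf1ESCs, 20.9 and 13.3 in SCLCs and 37.9 and 55.5 in tod-PGCLCs. The tod-PGCLC libraries were the highest, by 3.65 ± 0.27 against tcESCs (log2, adjusted p = 8.87e-06), and SCLCs lay between them and the ESCs (1.79 ± 0.24 against tc;Sf1ESCs, adjusted p = 3.81e-04). Fzd2 lies on chromosome 11, whose genes had a median log2 fold change of 0.52 between tod-PGCLCs and tcESCs and -0.53 between SCLCs and tod-PGCLCs, as do Wnt3, Wnt3a, Wnt9a, Wnt9b, Znrf3, Rnf43, Axin2, Tcf7 and Notum. The part of this shift in their values was not tested. Fzd4 stood at 5.35 and 5.12 CPM in tcESCs, 1.81 and 2.17 in tc;Sf1ESCs, 9.28 and 10.04 in SCLCs and 3.12 and 2.33 in tod-PGCLCs. It was lowest in tc;Sf1ESCs (-1.38 ± 0.18 against tcESCs on the log2 scale, adjusted p = 1.78e-03) and highest in SCLCs (2.33 ± 0.18 against tc;Sf1ESCs, adjusted p = 2.25e-05). Its fall in tod-PGCLCs against tcESCs (-1.01 ± 0.20) lay at the limit and was lost without tod-PGCLC replicate 2, at -0.81.

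Fzd6 stood at 8.93 and 8.74 CPM in tcESCs, 7.83 and 4.99 in tc;Sf1ESCs, 19.7 and 28.5 in SCLCs and 10.6 and 11.6 in tod-PGCLCs. Both SCLC libraries lay above the others (1.96 ± 0.25 against tc;Sf1ESCs on the log2 scale, adjusted p = 3.05e-04). Fzd9 stood at 2.79 and 3.39 CPM in tcESCs, 2.35 and 3.04 in tc;Sf1ESCs, 1.66 and 0.756 in SCLCs and 3.89 and 6.14 in tod-PGCLCs. Its calls in SCLCs against either ESC line depended on single libraries. That against tc;Sf1ESCs was lost without tc;Sf1ESC replicate 2 or SCLC replicate 2 (adjusted p up to 0.142), and that against tcESCs without either tcESC library or SCLC replicate 2 (up to 0.0978). The call against tod-PGCLCs (-1.93 ± 0.38, adjusted p = 1.65e-03) held with each library left out, at -2.58 without SCLC replicate 1. Fzd1, Fzd3 and Fzd8 stayed between 1.16 and 13.9 CPM in every library. Fzd1 was higher in SCLCs than in tc;Sf1ESCs by 1.87 ± 0.22 (log2, adjusted p = 2.06e-04), and Fzd8 was 2.83-fold higher in tod-PGCLCs than in tcESCs (adjusted p = 1.25e-04). Fzd3 was called lower in tc;Sf1ESCs than in tcESCs at a log2 fold change of -1.10 ± 0.33, a call lost without tcESC replicate 1 or either tc;Sf1ESC library, at adjusted p up to 0.208. The co-receptors Lrp5 and Lrp6 ran from 73.6 to 147 CPM over the 8 libraries and passed the 2-fold limit in no comparison, the nearest being Lrp5 in SCLCs against tc;Sf1ESCs at 0.95 ± 0.08 on the log2 scale (adjusted p = 2.71e-05). Without SCLC replicate 1 this Lrp5 difference passed the limit.

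**Figure D2:**
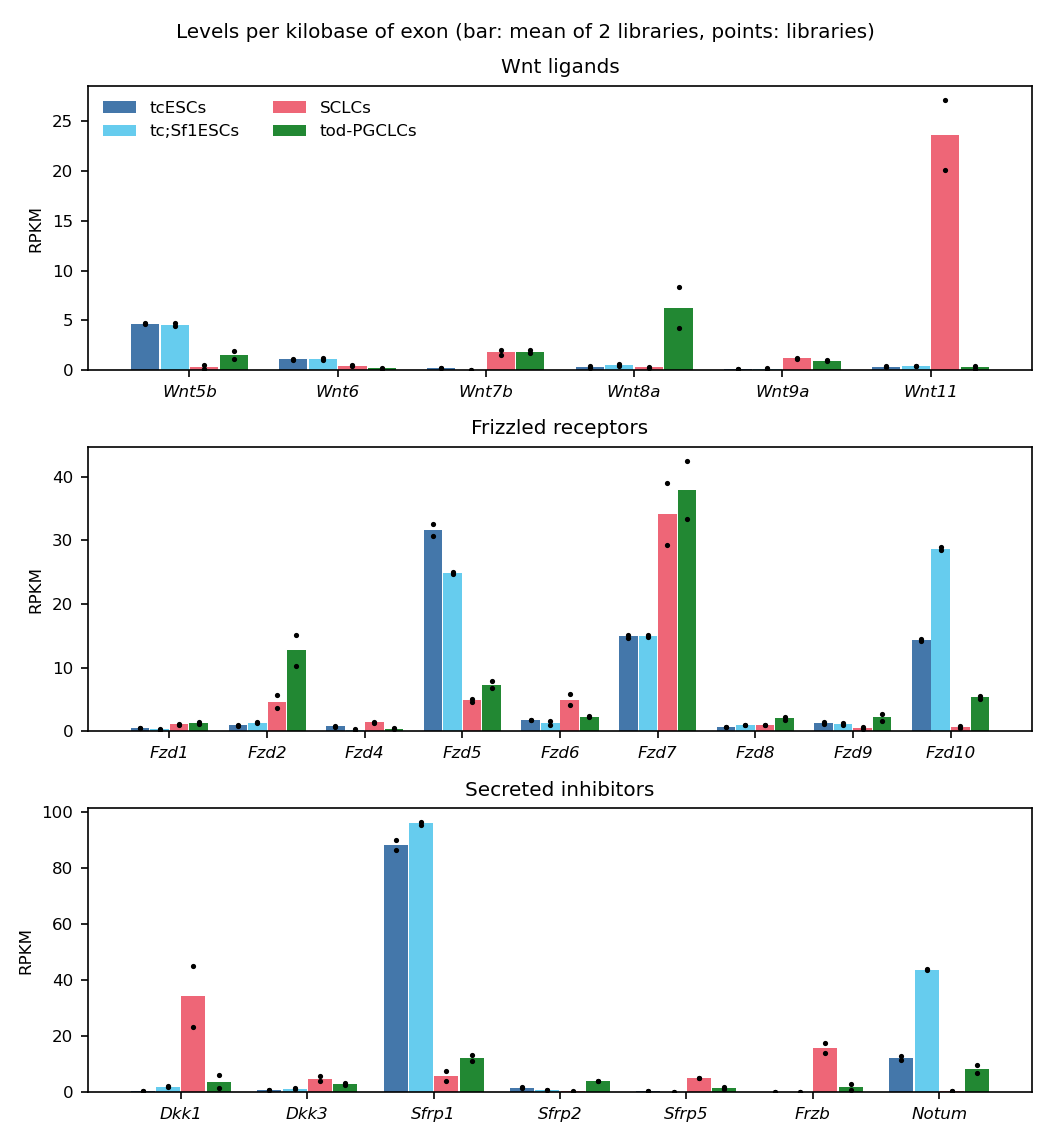
Levels in RPKM (CPM per kilobase of exon, linear axes from 0) of the Wnt ligands, Frizzled receptors and secreted inhibitors with a mean of at least 1 RPKM in a group. Bars are means of 2 libraries and points the libraries. Wnt11 leads in SCLCs and Wnt8a in tod-PGCLCs, Fzd7 is the tallest receptor in both, and Sfrp1 at 88.3 and 96.1 RPKM stands above every other inhibitor in the ESC lines.

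The leading secreted inhibitors of ESCs and of SCLCs were different genes. Sfrp1, which binds Wnts through a Frizzled-like domain, held 84.6% of the summed RPKM of the 10 inhibitors in tcESCs and 66.3% in tc;Sf1ESCs, while Dkk1 held 50.7% and Frzb 23.5% in SCLCs. In tod-PGCLCs Sfrp1 led again with 34.7%, followed by Notum with 23.2%. In SCLCs 5 of the 10 were called higher and 3 lower than in tc;Sf1ESCs, beside 24.1% and 18.1% of all genes tested, and Dkk2 and Frzb among the 5 passed the filter through SCLCs alone.

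Sfrp1 stood at 394 and 378 CPM in tcESCs, 418 and 423 in tc;Sf1ESCs, 33.4 and 17.5 in SCLCs and 59.0 and 49.2 in tod-PGCLCs. Both derived groups lay well below the ESC lines, by -4.00 ± 0.26 on the log2 scale in SCLCs against tc;Sf1ESCs (adjusted p = 1.05e-05) and -2.91 ± 0.23 in tod-PGCLCs against tcESCs (adjusted p = 1.35e-05). Sfrp1 is on chromosome 8, whose median gene was at 0.04 and -0.03 in these comparisons. Notum, an enzyme that removes the lipid from Wnt proteins and is itself a target of β-catenin, stood at 31.0 and 28.2 CPM in tcESCs, 106 and 105 in tc;Sf1ESCs, 0.792 and 1.07 in SCLCs and 16.3 and 23.6 in tod-PGCLCs. The 4 groups did not overlap. Notum rose by 1.85 ± 0.09 from tcESCs to tc;Sf1ESCs (log2, adjusted p = 5.51e-05) and was lower in SCLCs than in tc;Sf1ESCs by -6.76 ± 0.13 (adjusted p = 1.07e-07).

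Dkk1, which binds Lrp5 and Lrp6, stood at 0.905 and 1.11 CPM in tcESCs, 5.13 and 4.34 in tc;Sf1ESCs, 56.8 and 109.6 in SCLCs and 3.92 and 14.8 in tod-PGCLCs. It was higher in SCLCs than in every other library (4.19 ± 0.33 against tc;Sf1ESCs on the log2 scale, adjusted p = 2.52e-05), while the 2 tod-PGCLC libraries lay on either side of the tc;Sf1ESC level. The rise of 2.23 ± 0.46 between the ESC lines (adjusted p = 1.03e-02) was lost without either tcESC library, at adjusted p up to 0.0908. Frzb, also known as Sfrp3, had 6 and 4 counts in tcESCs, 0 and 1 in tc;Sf1ESCs, 1506 and 1337 in SCLCs and 67 and 246 in tod-PGCLCs. Its CPM in SCLCs was 2741 times that in tc;Sf1ESCs, with a 95% counting interval of 492 to 108306 that covers counting error only. Its difference between SCLCs, through which alone it passed the filter, and tcESCs was 8.20 ± 0.27 on the log2 scale. It was higher in tod-PGCLCs than in tcESCs by 4.92 ± 0.80 (adjusted p = 7.28e-04). This was 5.59 without tod-PGCLC replicate 1 and 3.67 without replicate 2. The endoderm and stromal markers were high in the same SCLC libraries as Wnt11, Dkk1 and Frzb, and so was Gata4. Dkk1 and 9 of 11 endoderm markers were higher in SCLC replicate 2. Wnt11, Frzb and 4 of 5 stromal markers were higher in SCLC replicate 1. A link between these genes and the markers was not tested.

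Dkk2, Dkk3 and Sfrp5 were the other inhibitors higher in SCLCs. Dkk2 had 0 and 2 counts in tcESCs, 0 and 4 in tc;Sf1ESCs, 74 and 27 in SCLCs and 3 and 2 in tod-PGCLCs, so both SCLC libraries lay above the rest. It passed the filter through SCLCs alone, and its log2 fold change against tc;Sf1ESCs was 4.60 ± 0.97. It was 3.64 without tc;Sf1ESC replicate 1 and 8.70 without tc;Sf1ESC replicate 2, which leaves a library at 0 and is no measure of size. Without SCLC replicate 2 it was 5.19, and without SCLC replicate 1 the mean count was too low to be tested. Dkk3 stood at 2.60 and 2.77 CPM in tcESCs, 4.32 and 4.84 in tc;Sf1ESCs, 19.5 and 13.3 in SCLCs and 9.08 and 10.8 in tod-PGCLCs, 4 levels without overlap of which SCLCs were the highest (1.89 ± 0.21 in SCLCs against tc;Sf1ESCs on the log2 scale, adjusted p = 1.60e-04). Sfrp5 stood at 1.14 and 0.717 CPM in tcESCs, 0.347 and 0.253 in tc;Sf1ESCs, 9.92 and 9.87 in SCLCs and 2.03 and 3.95 in tod-PGCLCs. The SCLC libraries were the highest (5.08 ± 0.30 against tc;Sf1ESCs, adjusted p = 6.39e-06). The difference between the ESC lines (-1.59 ± 0.37) was lost without tcESC replicate 1 or either tc;Sf1ESC library at adjusted p up to 0.118, and that between tod-PGCLCs and tcESCs (1.63 ± 0.37) without tcESC replicate 2 at 0.0569.

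Sfrp2 stood at 3.97 and 3.42 CPM in tcESCs, 1.89 and 1.81 in tc;Sf1ESCs, 1.43 and 0.687 in SCLCs and 9.11 and 9.07 in tod-PGCLCs. It was highest in tod-PGCLCs and lowest in SCLCs, which differed by -2.98 ± 0.29 on the log2 scale (adjusted p = 2.52e-05), or -3.57 without SCLC replicate 1. Sfrp4 stayed between 0.516 and 2.38 CPM in every library. Its call in tc;Sf1ESCs against tcESCs (1.65 ± 0.37) was lost with any of the 4 libraries missing (adjusted p up to 0.115). That in SCLCs against tc;Sf1ESCs (-1.42 ± 0.37) was lost without tc;Sf1ESC replicate 2 or SCLC replicate 2 (up to 0.0533) and was -2.06 without SCLC replicate 1. Wif1, which binds Wnts directly, reached at most 15 counts, in tod-PGCLC replicate 1.

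In the R-spondin module the receptor Lgr4 was by far the most abundant of the LGR genes per kilobase, with 96.6% to 98.2% of their summed RPKM in every group. Lgr4 ran from 53.0 to 53.4 CPM in tcESCs, 74.7 to 84.4 in tc;Sf1ESCs, 100.1 to 102 in SCLCs and 111 to 124 in tod-PGCLCs, with no overlap between the groups. It passed the 2-fold limit only in tod-PGCLCs against tcESCs (1.07 ± 0.08 on the log2 scale, adjusted p = 1.03e-05), a call lost without tod-PGCLC replicate 2, where it fell just short of the limit. Lgr5, a receptor that marks Wnt-responsive stem cells in several tissues, had 4 and 5 counts in tcESCs, 0 and 0 in tc;Sf1ESCs, 88 and 64 in SCLCs and 14 and 99 in tod-PGCLCs. It was at least 24.6-fold higher in SCLCs than in tc;Sf1ESCs, a lower bound computed against 3 counts per library. Its call between the ESC lines rests on 9 counts and was lost without any 1 of their 4 libraries, and with all 8 libraries fitted. That between tod-PGCLCs and tcESCs (log2 fold change 3.61, adjusted p = 1.49e-02) was lost without either tcESC library or tod-PGCLC replicate 2, at adjusted p up to 0.0992 and log2 values from 1.57 to 4.43. Lgr6 stood at 2.05 and 2.09 CPM in tcESCs, 1.81 and 1.88 in tc;Sf1ESCs, 0.302 and 0.309 in SCLCs and 1.31 and 1.02 in tod-PGCLCs, so that it was lowest in SCLCs, opposite to Lgr5 (-2.53 ± 0.29 against tc;Sf1ESCs, adjusted p = 1.72e-04).

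Rnf43 and Znrf3, paralogous ubiquitin ligases, did not follow each other. Rnf43 stood at 1.46 and 1.73 CPM in tcESCs, 8.25 and 9.18 in tc;Sf1ESCs, 10.3 and 12.7 in SCLCs and 1.38 and 1.81 in tod-PGCLCs. It rose by 2.46 ± 0.20 from tcESCs to tc;Sf1ESCs (log2, adjusted p = 2.93e-04) and was not called between these and SCLCs (0.45 ± 0.17, adjusted p = 4.25e-02), while tod-PGCLCs overlapped tcESCs. Znrf3 stayed between 22.8 and 48.7 CPM and was called in no comparison. The R-spondin Rspo3 had 14 and 16 counts in tcESCs, 2 and 0 in tc;Sf1ESCs, 18 and 10 in SCLCs and 42 and 181 in tod-PGCLCs. It passed the filter through tod-PGCLCs alone. Its call in tod-PGCLCs against tcESCs (2.87 ± 0.71) was lost without either tcESC library or tod-PGCLC replicate 2, at adjusted p up to 0.0634 and log2 fold changes from 1.44 to 3.59. Between the ESC lines, where it was not tested, the level in tcESCs was 14.3 times that in tc;Sf1ESCs (95% counting interval 3.64 to 124).

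Of the intracellular genes, Axin2, Lef1, Tcf7, Nkd1 and Ctnnb1 stood at 4 levels without overlap between groups, Ctnnb1 although it was never called. Tcf7l1 overlapped between SCLCs and tod-PGCLCs and Tcf7l2 between tcESCs and tod-PGCLCs. The share of all genes at 4 such levels was not computed, so nothing particular to these genes is read from it. Axin2, a scaffold of the destruction complex and a widely used readout of the pathway, stood at 73.6 and 69.8 CPM in tcESCs, 150.3 and 151 in tc;Sf1ESCs, 10.9 and 13.2 in SCLCs and 37.2 and 41.6 in tod-PGCLCs. It was highest in tc;Sf1ESCs and lowest in SCLCs. Axin2 rose by 1.08 ± 0.09 from tcESCs to tc;Sf1ESCs (log2, adjusted p = 3.44e-04) and was lower in SCLCs than in tc;Sf1ESCs by a log2 fold change of -3.59 ± 0.10 (adjusted p = 3.44e-07) and than in tcESCs by -2.51 ± 0.10 (adjusted p = 1.16e-06). In tod-PGCLCs it was -0.94 ± 0.10 against tcESCs, just inside the 2-fold limit, which it passed without tcESC replicate 2 or without tod-PGCLC replicate 2.

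Lef1, the TCF/LEF factor whose own gene responds to β-catenin, stood at 1.61 and 1.83 CPM in tcESCs, 35.2 and 33.7 in tc;Sf1ESCs, 5.21 and 2.65 in SCLCs and 62.4 and 48.7 in tod-PGCLCs. It rose by 4.33 ± 0.30 between the ESC lines (log2, adjusted p = 1.63e-04) and by 4.93 ± 0.28 from tcESCs to tod-PGCLCs (adjusted p = 2.30e-06). It was lower in SCLCs than in tc;Sf1ESCs by -3.09 ± 0.27 (adjusted p = 4.20e-05). The remaining difference between SCLCs and tcESCs, 1.24 ± 0.32, was lost without either tcESC library or SCLC replicate 1, at adjusted p up to 0.0732 and log2 fold changes from 0.69 to 1.65. Lef1 and Axin2 were thus both higher in tc;Sf1ESCs than in tcESCs or SCLCs, while in tod-PGCLCs Lef1 was at its highest and Axin2 below its tcESC level.

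**Figure D3:**
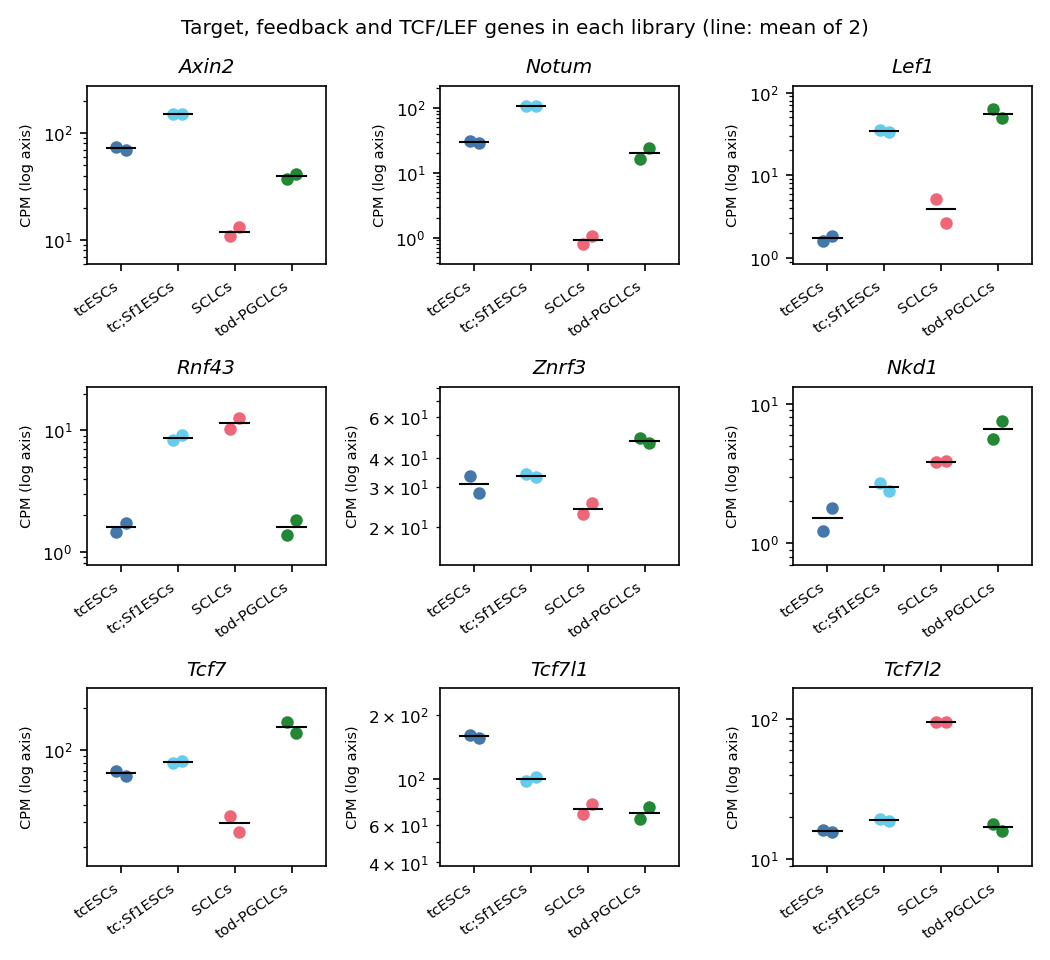
CPM (log axes, a different range in each panel) of Axin2, Notum, Lef1, Rnf43, Znrf3, Nkd1, Tcf7, Tcf7l1 and Tcf7l2 in each library, with a line at the mean of the 2 libraries of a group. Axin2 and Notum are highest in tc;Sf1ESCs and lowest in SCLCs, Lef1 and Tcf7 are highest in tod-PGCLCs, and Tcf7l2 is highest in SCLCs.

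The TCF/LEF factor with the highest RPKM was Tcf7l1, known chiefly as a repressor in ESCs, in tcESCs (40.5 ± 0.748, SD, n = 2) and in SCLCs (18.3 ± 1.52), and Tcf7 in tc;Sf1ESCs (31.2 ± 0.742) and in tod-PGCLCs (55.5 ± 6.92). In SCLCs the next factors, Tcf7 and Tcf7l2, overlapped. Tcf7l2 stood at 16.3 and 15.6 CPM in tcESCs, 19.4 and 18.8 in tc;Sf1ESCs, 95.1 and 95.8 in SCLCs and 17.9 and 16.0 in tod-PGCLCs. Both SCLC libraries lay above the other 6 (2.37 ± 0.07 against tc;Sf1ESCs on the log2 scale, adjusted p = 4.73e-07), and tod-PGCLCs overlapped tcESCs. Tcf7 stood at 70.1 and 64.6 CPM in tcESCs, 80.5 and 83.2 in tc;Sf1ESCs, 33.4 and 25.3 in SCLCs and 159 and 133 in tod-PGCLCs. It was lowest in SCLCs (-1.43 ± 0.13 against tc;Sf1ESCs, adjusted p = 4.66e-05) and highest in tod-PGCLCs, where its log2 fold change against tcESCs of 1.04 ± 0.13 was near the limit. That call was lost without tcESC replicate 2 or tod-PGCLC replicate 1, at values down to 0.91, and stands beside the chromosome 11 median of 0.52.

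Tcf7l1 was lower in SCLCs (-1.08 ± 0.08, adjusted p = 1.48e-05) and in tod-PGCLCs (-1.28 ± 0.09, adjusted p = 5.64e-06) than in tcESCs on the log2 scale, the first lost without SCLC replicate 1 at -0.98. It is on chromosome 6, whose median gene was -0.30 and -0.29 in these comparisons. Nkd1, an antagonist that binds Dishevelled and is a target of the pathway, stood at 1.22 and 1.79 CPM in tcESCs, 2.70 and 2.38 in tc;Sf1ESCs, 3.81 and 3.88 in SCLCs and 5.63 and 7.53 in tod-PGCLCs. The 4 groups did not overlap. Nkd1 was higher in tod-PGCLCs than in tcESCs by 2.04 ± 0.25 (adjusted p = 1.48e-04) and in SCLCs than in tcESCs by 1.40 ± 0.24 (adjusted p = 1.49e-03), the latter beside a chromosome 8 median of 0.58. Ctnnb1 itself stayed between 723 and 952 CPM in all 8 libraries, with log2 fold changes from -0.30 to 0.11 over the 5 comparisons.

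**Figure D4:**
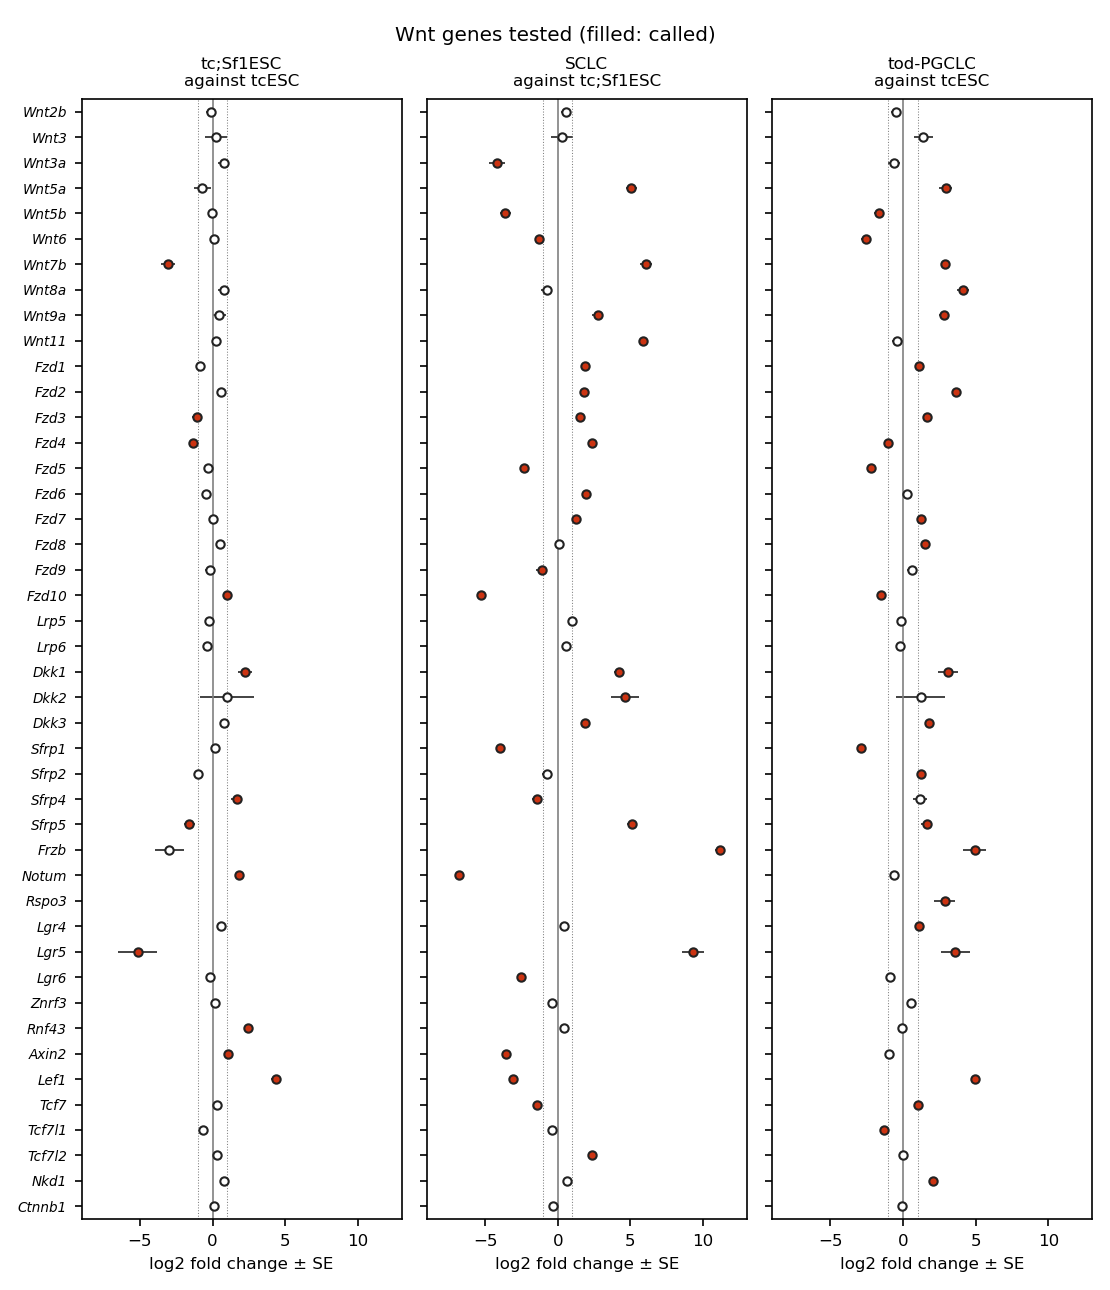
Log2 fold changes (points) with SE (bars) of the Wnt genes tested, in tc;Sf1ESCs against tcESCs, SCLCs against tc;Sf1ESCs and tod-PGCLCs against tcESCs. Filled points were called, and dotted lines mark 2-fold. Axin2, Lef1, Notum, Fzd10 and Sfrp4 lie to the right in the first panel and to the left in the second, and Wnt7b, Fzd3, Fzd4 and Sfrp5 the other way. The points of Frzb and Lgr5 in these 2 panels rest on 0 or 1 count in tc;Sf1ESCs and are no measure of size.

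Between the ESC lines, then, the genes called higher in tc;Sf1ESCs were Lef1, Rnf43, Dkk1, Notum, Sfrp4, Axin2 and Fzd10, and those called lower were Wnt7b, Fzd3, Fzd4, Sfrp5 and Lgr5. Of these 12, 6 (Lef1, Rnf43, Notum, Axin2, Wnt7b and Fzd4) were also called with each of the 4 libraries left out in turn. The number called was 6 without tcESC replicate 1 and 7 without tc;Sf1ESC replicate 2. From tc;Sf1ESCs to SCLCs, a comparison that shares the tc;Sf1ESC libraries, Lef1, Notum, Axin2, Fzd10 and Sfrp4 were called lower, Wnt7b, Fzd3, Fzd4, Sfrp5, Lgr5 and Dkk1 were called higher, and Rnf43 was not called.

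The other genes of the pathway, 63 in all, gave 11 called between the ESC lines (8 higher, 3 lower in tc;Sf1ESCs), 28 in SCLCs against tc;Sf1ESCs (13 higher, 15 lower), 32 in SCLCs against tcESCs (15 higher, 17 lower), 23 in tod-PGCLCs against tcESCs (13 higher, 10 lower) and 24 in SCLCs against tod-PGCLCs (8 higher, 16 lower), against the backgrounds given above. Sp5, a target of β-catenin, stood at 20.3 and 20.3 CPM in tcESCs, 75.1 and 71.3 in tc;Sf1ESCs, 0.641 and 0.344 in SCLCs and 6.68 and 12.7 in tod-PGCLCs, the same order of groups as Axin2 and Notum. T, the mesoderm factor Brachyury and another target, stood at 1.46 and 1.53 CPM in tcESCs, 8.76 and 10.3 in tc;Sf1ESCs, 0.0755 and 0.241 in SCLCs and 10.4 and 27.0 in tod-PGCLCs, where it was highest, as Lef1 was. From tc;Sf1ESCs to SCLCs both were lower, Sp5 by a log2 fold change of -7.17 ± 0.18 (adjusted p = 2.04e-07) and T by -5.80 ± 0.36 (adjusted p = 7.72e-06), or -6.86 without SCLC replicate 2.

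Porcn, which acylates Wnts for secretion, was lower in tc;Sf1ESCs than in tcESCs (-1.88 ± 0.21 on the log2 scale, adjusted p = 8.18e-04). Cyclin D1 (Ccnd1) was lower in SCLCs than in tcESCs by a log2 fold change of -4.92 ± 0.08 (adjusted p = 5.05e-08), and Prickle1, of the planar polarity branch, was higher by 4.83 ± 0.14 (adjusted p = 3.56e-07), as was the glypican Gpc3 by 4.05 ± 0.11 (adjusted p = 3.09e-07). In SCLCs against tod-PGCLCs the largest increases were those of Dkkl1 (3.28 ± 0.29, adjusted p = 1.45e-05) and of the β-catenin cofactor Bcl9l (2.81 ± 0.08, adjusted p = 4.88e-08). In tod-PGCLCs against tcESCs Cdx1 (-3.01 ± 0.17, adjusted p = 1.83e-06) and the glypican Gpc4 (-2.54 ± 0.08, adjusted p = 1.87e-07) were lower, and Cer1, a secreted antagonist of Nodal and BMP, had 0 counts in both tcESC libraries and 73 and 337 in tod-PGCLCs. Cer1 was at least 71.1-fold higher, or at least 24.6-fold without tod-PGCLC replicate 2 and 117.6-fold without replicate 1, and it passed the filter through tod-PGCLCs alone. Wnt4, which passed the filter through SCLCs alone, stood at 2.41 and 3.44 CPM in SCLCs and 0.116 and 0.108 in tc;Sf1ESCs (log2 fold change 4.71 ± 0.42), and Rspo1 was lower in tc;Sf1ESCs than in tcESCs (-1.84 ± 0.36, adjusted p = 8.38e-03), a call lost when single libraries were left out.

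The 2 tod-PGCLC libraries differed in several Wnt genes. Of 47 Wnt genes with at least 20 counts over both libraries, 9 were more than 2-fold higher in replicate 2 and 1, Sfrp4, in replicate 1. Some of the 9 had few counts, as Rspo4 with 10 and 30. The share of all genes beyond 2-fold between replicates was not computed, here or for SCLCs. Nothing particular to the Wnt genes is read from these counts. Lgr5 stood 7.33 times as high in replicate 2, Rspo3 4.47 times, Frzb 3.81 times, Dkk1 3.77 times and Rspo4 3.11 times, while Lef1, Tcf7 and Fzd7 were slightly lower in it. Of 58 other pathway genes with as many counts, 3 (Cer1, T and Wls) were more than 2-fold higher in replicate 2 and 0 in replicate 1. Higher in replicate 2 were 8 of 11 endoderm, 5 of 9 germ cell, 4 of 10 Sertoli cell, 2 of 8 ESC, 4 of 5 stromal, 4 of 4 granulosa cell, 3 of 5 trophectoderm and 2 of 6 renal markers, some of them at a few counts. The part of these differences in the Wnt values was not tested. In SCLCs, of 43 such genes 1 (Wnt16) was more than 2-fold higher in replicate 2 and 5 (Wnt5b, Fzd9, Dkk2, Sfrp2 and Sfrp4) in replicate 1. Higher in SCLC replicate 2 were 9 of 11 endoderm, 1 of 9 germ cell, 5 of 10 Sertoli cell, 1 of 8 ESC, 1 of 5 stromal, 2 of 4 granulosa cell, 5 of 5 trophectoderm and 3 of 6 renal markers.

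**Figure D5:**
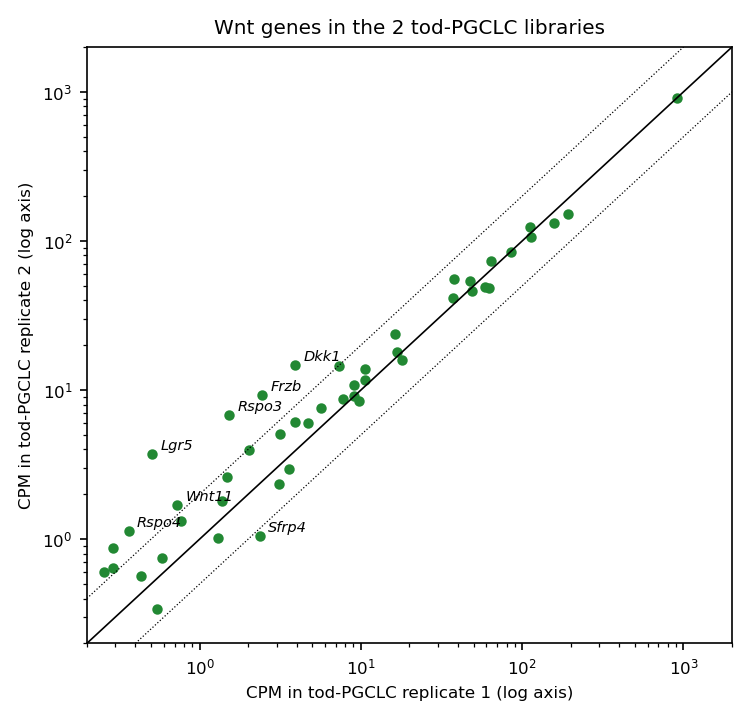
CPM of Wnt genes with at least 20 counts over both tod-PGCLC libraries, replicate 1 (x, log axis) against replicate 2 (y, log axis); the solid line marks equal levels, dotted lines 2-fold, and genes beyond 2-fold that reach 1 CPM are named. Lgr5, Rspo3, Frzb and Dkk1 lie above the upper line and Sfrp4 below the lower one.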

How the data were processed

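RNA was sequenced from 8 libraries in 4 groups of 2 (tcESCs, tc;Sf1ESCs, SCLCs and tod-PGCLCs). The libraries were strand-specific, from poly-A RNA. Per the submitters' notes the reads were trimmed with Trim Galore and aligned to GRCm38 with STAR 2.4.0, and Picard, HTSeq and DESeq2 are also named. The authors deposited raw counts per gene, without normalization. Rows that name no gene held 35.6% to 41.6% of the reads and were left out. Of 46078 gene IDs, 45143 were named with GENCODE M21. Totals ran from 25411033 to 30680191 counts per library. Counting intervals and limits leave out other errors, as reads copied by PCR are not separate molecules.

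The 54 Wnt genes and the 63 other pathway genes were chosen by role, with earlier results of these data known. Counts were fitted in R 4.3.3 with edgeR 4.0.16 (TMM, quasi-likelihood test, Benjamini-Hochberg adjustment over all genes tested), in 1 fit of the 6 libraries of ESCs and SCLCs (16481 genes with a mean count above 10) and 1 of all 8 (16707 genes) for tod-PGCLCs. A call needed more than a 2-fold difference with an adjusted p under 0.05. CPM used the library totals, and RPKM divided CPM by the exon length. SEs were derived from the fold change and its F statistic. Folds against 0 counts are bounds against 3 counts per library, and 1 to 3 counts in a group give a ratio with an exact 95% interval. Values in each library are given for at most 30 Wnt genes, those called at least once with a mean of at least 1 CPM in a group, ranked by their largest log2 fold change, and for Wnt3a and Wnt10a. Genes of the other list were named from the 2 largest called changes per direction and comparison. Marker lists are counts and sums. Wnt10a, Wif1 and the replicate differences were named after their values were seen. Promoters came from RefSeq (GRCm38.p6), 36 of 54 genes matched.

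Alternatives were RLE size factors, no filter, DESeq2 1.42.0, another set of libraries in the fit, a replicate block, and leaving out each library in turn. The fit was tested on simulated data with known changes.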

Additional observations from a re-analysis of the deposited data

How the results depend on the processing

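No call of a Wnt gene or of another pathway gene reversed its direction under any alternative run. Of 90 counts recomputed under the alternatives, 88 stayed within 1.5 times the reported value. The exceptions were Wnt genes called between tc;Sf1ESCs and tcESCs, 12 as reported, where leaving out 1 library gave 6 to 9, with 6 without tcESC replicate 1 and 7 without tc;Sf1ESC replicate 2. A lone library was assumed to vary like the other groups. Calls of single genes were lost in 86 of 2181 repeats in which the gene could still be tested. Repeats in which it could not, as for Dkk2 without SCLC replicate 1, are not among these. In SCLCs against tc;Sf1ESCs, 26 of 30 Wnt genes were called with every library left out in turn, in SCLCs against tcESCs 25 of 31, in tod-PGCLCs against tcESCs 20 of 27, and in SCLCs against tod-PGCLCs 22 of 25. With every gene of at least 1 count tested, 34 Wnt genes were called in tod-PGCLCs against tcESCs, the 27 reported and Wnt1, Wnt3, Wnt10a, Wnt10b, Wnt16, Sfrp4 and Rspo4.

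With the replicate number as a block, 13, 30, 31, 27 and 25 Wnt genes were called in the 5 comparisons in the order of the report, against 12, 30, 31, 27 and 25 without it. Libraries with the same number did not deviate together (correlations from -0.0261 to 0.0618), so they share only a number. With 2 libraries a group, p-values rest on a spread between replicates that was pooled over the groups of a fit and shared across genes. The groups differed in this spread, with an SD of the log2 difference of 0.250 in tc;Sf1ESCs, 0.270 in tcESCs, 0.371 in tod-PGCLCs and 0.508 in SCLCs. Genes at a few counts, among them Lgr5, Rspo3 and Wnt3a, are limited by depth.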
